A study of Homo sapiens with 2 samples.

Results

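Superoxide dismutases and the enzymes that remove peroxides were examined in T47D, an established human cell line from a luminal breast cancer. The members were 10 genes, taken by name: the superoxide dismutases SOD1, SOD2 and SOD3, catalase (CAT), the glutathione peroxidases GPX1 and GPX4, the peroxiredoxins PRDX1, PRDX2 and PRDX3, and thioredoxin (TXN). Every transcript accession on the array (called a feature here) that maps to one of them was used, which gave 14 features of 28973 in all, and 10 of 11564 named genes. The members were chosen by these same values, because SOD3 was higher in the shTRPS1 array, so the intensities and differences below are a description and carry no test. The data held 2 arrays. One was of T47D cells given a negative control lentivirus (NC), the other of T47D cells whose lentivirus carried a hairpin RNA that targets TRPS1, a GATA-type zinc finger repressor (shTRPS1). The labels name no separate clones or cultures, and each group had 1 array, so no difference has a replicate check.

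Superoxide is formed when an electron leaks to oxygen, for instance in the respiratory chain or at NADPH oxidases. Superoxide dismutases turn it into hydrogen peroxide and oxygen, each in its own place: SOD1 with copper and zinc in the cytosol, SOD2 with manganese in the mitochondrial matrix, and SOD3 with copper and zinc outside the cell, where it binds heparan sulphate. Catalase in peroxisomes, glutathione peroxidases and peroxiredoxins then remove the peroxide, and thioredoxin returns electrons to the peroxiredoxins.

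Values are the deposited intensities on a linear scale, and a difference is the log2 value of shTRPS1 minus that of NC. Background was set for each array at the 95th percentile of 60 features for olfactory receptors, at an intensity of 397 in NC and 325 in shTRPS1. A gene was represented by its brightest feature, and was called higher or lower if it was at least 2-fold apart and above background on at least 1 array. Of the 10 members, 1 was called higher and 0 were called lower. Among 6949 genes above background, 3.78% were called higher and 2.37% lower. The choice of members used this same contrast, so nothing is read from their share. The targeted gene itself, TRPS1, read 727 in NC and 603 in shTRPS1, a difference of -0.27. The middle 95% of the 500 genes of most similar mean signal ran from -1.02 to 1.05, so the TRPS1 difference was well within the spread between genes, and every direction below rests on the array labelled shTRPS1.

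The luminal label was checked against 11 marker genes. All 11 were measured and 9 were above background on both arrays, among them GATA3 at 22487 and 25543 and KRT8 at 35126 and 27010 in NC and shTRPS1. ESR1, the oestrogen receptor, was much nearer to background, at 541 and 582. The 3 basal markers measured, given further below, were also above background on both arrays, with KRT5 at 5273 and 4381, brighter than ESR1. TFF1 and TFF3, secreted proteins of oestrogen-responsive epithelium, were below background on both arrays.

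The upstream sequences of SOD3, the member that was at least 2-fold apart, and of CAT, a member with little difference, are shown so that their motif content can be read side by side. Each run holds the 250 bases before the gene start in RefSeq's GRCh38.p14 promoter table, 5′ to 3′, on the plus strand; SOD3 lies at chr4:24795323-24795572 and CAT at chr11:34438684-34438933. Capitals mark matches to the GC box, GGGCGG on either strand.
SOD3: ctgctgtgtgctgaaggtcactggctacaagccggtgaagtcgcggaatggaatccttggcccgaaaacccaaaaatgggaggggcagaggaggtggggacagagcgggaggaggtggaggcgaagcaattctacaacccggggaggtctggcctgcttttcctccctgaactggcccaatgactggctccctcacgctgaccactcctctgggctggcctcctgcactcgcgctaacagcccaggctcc
CAT: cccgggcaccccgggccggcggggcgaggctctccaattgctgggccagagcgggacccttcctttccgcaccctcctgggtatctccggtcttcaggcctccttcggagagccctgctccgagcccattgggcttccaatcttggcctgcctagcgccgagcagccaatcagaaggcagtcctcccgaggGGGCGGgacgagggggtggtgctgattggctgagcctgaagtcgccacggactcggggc

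Promoter windows of 300 bases, from 250 before to 50 after the gene start, were searched for 7 members. SOD1 and PRDX1 were not matched, and SOD2 was left out because its window is not known to sit at the start of the measured transcripts. The GC box occurred in 6 of the 7 windows, all but that of SOD3, and in 45% of 35114 windows of that length. The antioxidant response element core TGACNNNGC, through which the stress factor NRF2 acts, occurred in none of the 7 windows and in 13.3% of all windows. The AP-1 motif TGANTCA occurred in none of the 7 and in 7.71% of all. GATA motifs, searched as GATAA or GATAG preceded by A or T, occurred in none of the 7 and in 25% of all. All motifs were searched on both strands, and no match of one overlapped another in the members. The share of G and C was 61.7% in the SOD3 window and from 61.3% (PRDX3) to 73.7% (PRDX2) over the 7, against a median of 58.7% over all windows. A window sits at 1 start per gene, which in genes with several transcripts need not be the start of the transcript measured, and the absence of these letters from a window says nothing about the factors.

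SOD3, the extracellular dismutase, was the member that stood apart. Its single feature, NM_003102, read 2444 in NC and 7235 in shTRPS1, both well above background. It was therefore 2.96-fold higher in the shTRPS1 array, a log2 difference of 1.57. The middle 95% of the 500 genes of most similar mean signal ran from -0.70 to 0.74, with an SD of 0.36, and SOD3 lay outside it. Among 5829 genes above background on both arrays, of which 1.39% were at least 2-fold higher, it ranked 9 by upward difference. Among the 6949 genes above background on at least 1 array, the set used for calls, SOD3 ranked 50. The members were chosen for this SOD3 difference, so the place of SOD3 outside that range and its ranks are description and no support. With 1 feature, no other feature of SOD3 could be set beside it on these arrays.

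The 3 genes above background on both arrays whose difference was nearest to that of SOD3 were PLK2, PPT2 and TCAF1, at distances of 0.04, 0.04 and 0.09 on the log2 scale. PLK2, a stress-inducible polo-like kinase, read 1212 in NC and 3490 in shTRPS1. PPT2, a lysosomal thioesterase, read 929 and 2672. TCAF1, a partner of TRP channels, read 733 and 2044. This likeness rests on 1 difference between 2 arrays.

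SOD3 is known as a product of fibroblasts and vascular smooth muscle as well as of epithelia, so markers of those cells are given beside it. Of 10 fibroblast and smooth muscle markers 3 were measured: COL1A1 at 363 and 773, ACTA2 at 748 and 595 and TAGLN at 937 and 1610 in NC and shTRPS1. The COL1A1 value in NC was below background. With that value included, the summed intensity of the 3 was 2047 in NC and 2978 in shTRPS1. The other 7, among them COL1A2, COL3A1, DCN, LUM and PDGFRB, were not measured under that name. Basal and myoepithelial markers, 3 of 4 measured, summed to 9606 and 16789, with KRT14 from 598 to 2113, KRT17 from 3735 to 10294 and KRT5 from 5273 to 4381. The endothelial marker CDH5 and the leukocyte marker CD14 were below background on both arrays. Both arrays were of the T47D line, and the labels name no other cell type. Whether these markers bear on the SOD3 value was not tested. In bulk RNA, more cells that express a gene cannot be told apart from more RNA per cell.

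**Figure D1:**
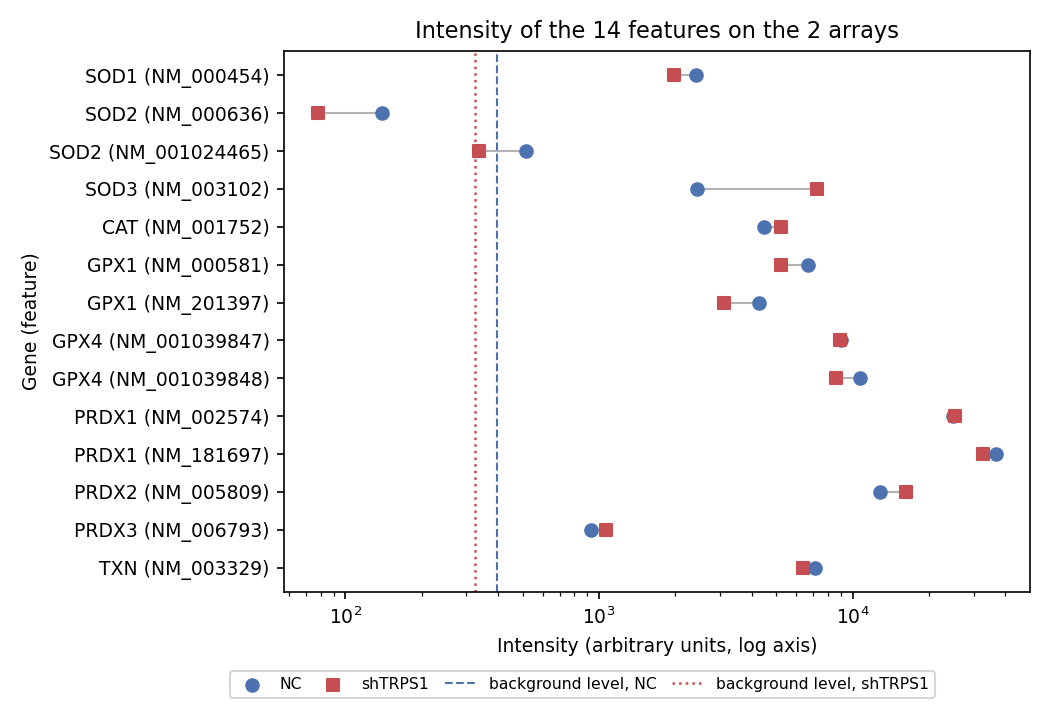
Intensity of each of the 14 features (arbitrary units, log axis) on the NC array (circles) and the shTRPS1 array (squares), with each array's background level as a vertical line. SOD3 shows the widest gap among features above background, from 2444 to 7235, and the SOD2 feature NM_000636 lies below background on both arrays.

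The intracellular dismutases were both measured lower, without a call. SOD1 (NM_000454) read 2419 in NC and 1969 in shTRPS1, which was 1.23-fold lower or a difference of -0.30. The spread of like genes ran from -0.67 to 0.95, so the SOD1 difference was inside it. SOD2, the mitochondrial enzyme, had the lowest difference of the 10 members. Its brighter feature, NM_001024465, read 515 in NC and 335 in shTRPS1, 1.54-fold lower or -0.62. The shTRPS1 value was only just above that array's background of 325. The other SOD2 feature, NM_000636, read 139 and 77.9, below background on both arrays, so no fold is given, and its measured values were also lower in shTRPS1. The range of like genes at the signal of the brighter feature was -1.23 to 1.26, and SOD2 was inside it. Of the 3 dismutases, then, SOD3 was called higher and the other 2 were measured lower without a call.

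Catalase showed little difference. Its feature NM_001752 read 4483 in NC and 5199 in shTRPS1, 1.16-fold higher or 0.21, inside the range of like genes of -0.69 to 0.77.

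Both glutathione peroxidases, selenoenzymes that reduce peroxides with glutathione, were measured lower without a call. GPX1, the cytosolic and mitochondrial enzyme for soluble peroxides, had 2 features. NM_000581 read 6687 in NC and 5215 in shTRPS1, a difference of -0.36, and NM_201397 read 4281 and 3103, a difference of -0.46. Both were lower in shTRPS1 by a similar amount and inside the range of like genes. GPX4, which reduces lipid peroxides in membranes and restrains ferroptosis, also had 2 features. NM_001039848 read 10674 in NC and 8625 in shTRPS1, a difference of -0.31, whereas NM_001039847 read 9022 and 8901, a difference of -0.02. The features of GPX4 thus gave either a small negative difference or nearly the same intensity on both arrays.

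The peroxiredoxins, which reduce peroxides with thioredoxin, did not share a direction. PRDX1, an abundant cytosolic enzyme, read 36729 in NC and 32617 in shTRPS1 at NM_181697, a difference of -0.17. At its other feature, NM_002574, it read 24866 and 25303, a difference of 0.03, so that its direction is not settled by these features. PRDX2, the other cytosolic enzyme of this type, read 12807 and 16181 at NM_005809, 1.26-fold higher or 0.34. That was the highest difference among the members after SOD3 and was inside the range of like genes, -0.63 to 0.73. PRDX3, the mitochondrial enzyme, read 930 and 1062 at NM_006793, 1.14-fold higher or 0.19. TXN, the cytosolic electron donor of PRDX1 and PRDX2, read 7137 and 6345 at NM_003329, 1.12-fold lower or -0.17. None of these genes came near the 2-fold threshold.

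**Figure D2:**
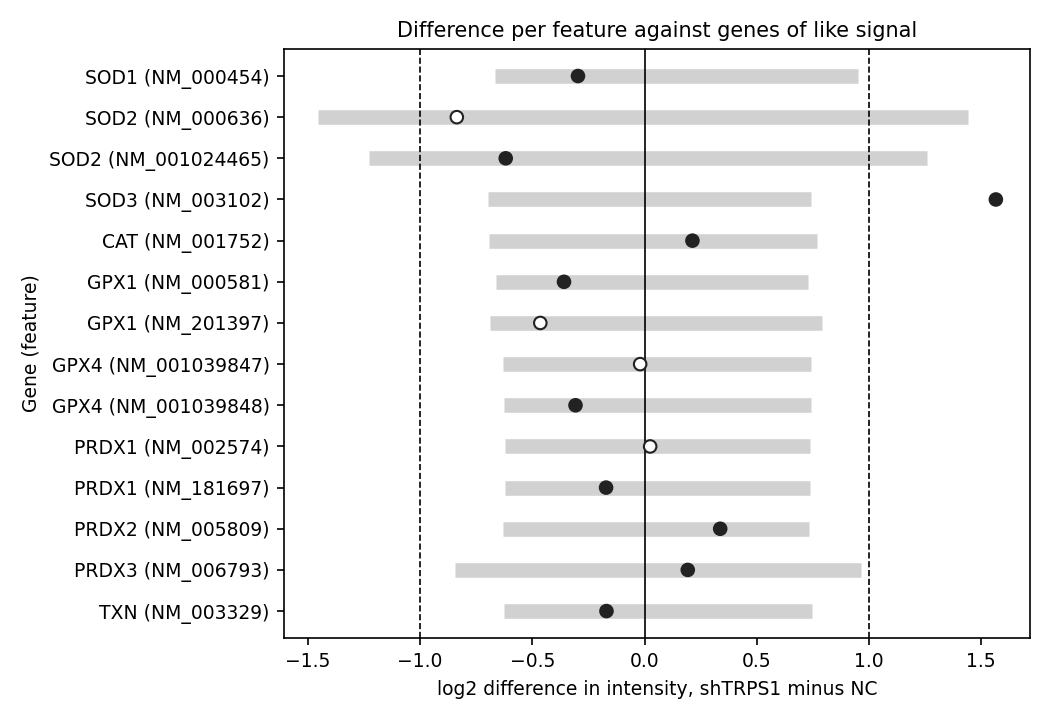
The log2 difference of each of the 14 features (shTRPS1 minus NC; filled points are the brightest feature of a gene, open points the other), with a grey bar for the middle 95% of the 500 genes of most similar mean signal and dashed lines at 2-fold. SOD3 at 1.57, the difference for which the members were chosen, is the 1 feature of 14 outside its bar.

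Taken by gene, 4 members had a positive and 6 a negative difference. Their median was -0.17, against 0.05 over all 11564 genes, of which 53.4% were positive, and 0.08 over the genes above background. Without SOD3 the members ran from -0.62 to 0.34. Signs were mixed within compartments: the mitochondrial SOD2 was measured lower and the mitochondrial PRDX3 higher, and the cytosolic SOD1 and TXN were measured lower and PRDX2 higher.

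Agreement between features of a gene gives the only technical yardstick within these arrays. In 367 genes with exactly 2 features above background on both arrays, the median gap between the differences of the features was 0.26, and 90% of gaps were under 0.70. The gaps were 0.11 in GPX1, 0.20 in PRDX1 and 0.29 in GPX4, and from 19.3% to 54.2% of the 367 genes had a smaller one. SOD2 had only 1 feature above background and gave no gap. Features of a gene can share sequence and always share the labelled RNA, so a small gap says nothing about a repeat of the experiment.

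**Figure D3:**
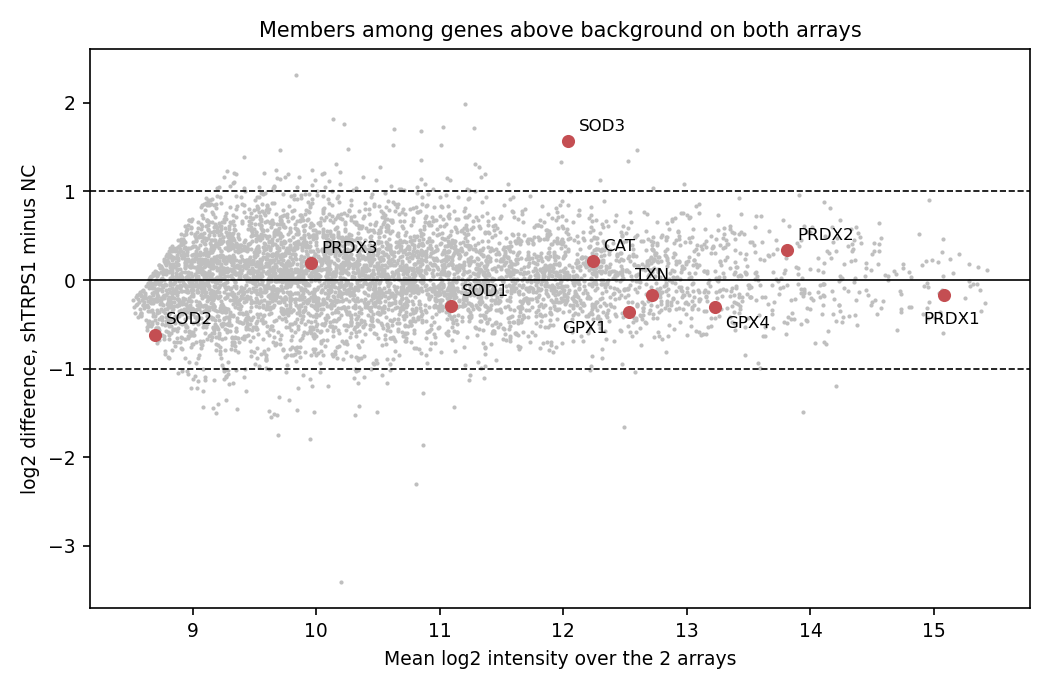
Mean log2 intensity over both arrays (horizontal) against the log2 difference, shTRPS1 minus NC (vertical), for the 5829 genes above background on both arrays (grey) and the 10 members (red, labelled); dashed lines mark 2-fold. SOD3 lies above the 2-fold line and the other 9 members lie within the cloud, between -0.62 and 0.34.

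Related genes were described through 9 lists that together hold 215 genes, of which 159 were measured and 108 were above background. Of these 108, 1 gene (0.926%) was called higher and 3 (2.78%) lower, beside the 3.78% and 2.37% over all genes above background. Only genes above background on at least 1 array could be called. In the order of the lists below these were 4, 14, 10, 18, 16, 14, 9, 11 and 12 genes. Signs and medians below are over all measured genes of a list, dim ones included, with the median over genes above background on both arrays beside them.

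Other peroxiredoxins and glutathione peroxidases had no call in 6 measured genes, with 1 positive and 5 negative differences and a median of -0.07, and also -0.07 over the 4 above background on both arrays. PRDX5, a peroxiredoxin of mitochondria and peroxisomes, was the furthest from 0 among these 4, from 25353 in NC to 17884 in shTRPS1 or -0.50. That was its brighter feature, and the mean over its 2 features was -0.36. PRDX4 of the endoplasmic reticulum had -0.09 and PRDX6, which also acts on phospholipids, -0.06. GPX2 and GPX3, chosen after their values were seen, were below background on both arrays.

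The thioredoxin and glutaredoxin list had no call in 16 measured genes, with 6 positive and 10 negative differences and a median of -0.06, and also -0.06 over 14 above background on both arrays. TXNRD1, the reductase that recharges TXN, read 1400 and 1346, a difference of -0.06. TXNIP, which binds and inhibits thioredoxin, read 638 and 890 or 0.48. SRXN1, which repairs overoxidised peroxiredoxins, had the highest difference among these 14, from 436 to 745 or 0.77. SESN2, a stress-induced sestrin chosen after its values were seen, had 0.66.

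Glutathione synthesis and NADPH supply had no call in 17 measured genes, with 8 positive and 9 negative differences and a median of -0.15, which was 0.10, of opposite sign, over 10 above background on both arrays. The genes that limit glutathione supply were too dim to read: GCLC and GCLM, the subunits of the rate-limiting ligase, GSR, which reduces oxidised glutathione, and SLC7A11, the cystine importer, were all below background on both arrays. NADK, the cytosolic NAD kinase that makes NADP and was chosen after its values were seen, came closest to a call, from 832 to 1611 or 0.95.

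NRF2 regulators and targets had 1 call, lower, in 21 measured genes, with 6 positive and 15 negative differences and a median of -0.14, and of -0.17 over 16 above background on both arrays. NQO2, a quinone reductase, was the call: it fell by 50.1%, from 1968 to 982, just at the threshold. NFE2L2, the gene of NRF2 itself, read 417 and 364 or -0.20, close to background, and KEAP1, its inhibitor, read 1114 and 1317 or 0.24. HMOX1, haem oxygenase, read 497 and 408 or -0.28, not far above background. NQO1, a widely used NRF2 target, was below background on both arrays, at 79.2 and 145.

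The metal list had 1 call, lower, in 19 measured genes, with 8 positive and 11 negative differences and a median of -0.06, and of -0.07 over 15 above background on both arrays. MT1F, a metallothionein, read 781 and 355, 2.20-fold lower, with the shTRPS1 value close to that array's background of 325. MT2A, from the same family, read 3113 and 4973 or 0.68. Metallothionein transcripts are similar in sequence, so these features may detect one another's transcripts, which was not tested. CCS, the chaperone that loads copper into SOD1, read 3970 and 3709 or -0.10. ATOX1, which hands copper to the pumps that supply secreted copper enzymes such as SOD3, read 3851 and 2055 or -0.91, just short of a call. ATP7B, a copper pump, read 216, below background, and 425, at least 1.07-fold higher. ATP7A, the other copper pump in the list, was not measured under that name. ATOX1 and ATP7B were chosen after their values were seen.

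Selenium supply and other selenoproteins had 1 call, lower, in 20 measured genes, with 7 positive and 12 negative differences and a median of -0.14, and of -0.21 over 13 above background on both arrays. SELENOO, a mitochondrial selenoprotein, was the call, from 900.0 to 425, 2.12-fold lower. The shTRPS1 value was not far above that array's background of 325. SEPHS2, which makes the selenium donor for selenoproteins including GPX1 and GPX4, had -0.26; it was chosen after its values were seen.

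Enzymes that make superoxide or hydrogen peroxide had no call in 23 measured genes, with 13 positive and 10 negative differences and a median of 0.08. Only 6 were above background on both arrays, 4 positive and 2 negative, with a median of 0.12. CYBA, the p22phox subunit of NADPH oxidases, read 7232 and 5672 or -0.35, while the catalytic subunits measured, CYBB, NOX5 and DUOX1, were below background on both arrays; these 4 were chosen after their values were seen. The list of peroxisome assembly and import, which brings catalase to its compartment, had 1 call, higher, in 20 measured genes, with 9 positive and 11 negative differences and a median of -0.12, and also -0.12 over 10 above background on both arrays. That was ABCD3, a peroxisomal transporter, at 163 in NC, below background, and 395 in shTRPS1; the latter did not exceed the NC background level, so no fold is given. PEX5, the import receptor, likewise chosen after its values were seen, read 474 and 392 or -0.27. Regulators of mitochondrial and FOXO antioxidant genes had no call in 17 measured genes, with 10 positive and 7 negative differences and a median of 0.02, and of 0.06 over 11 above background on both arrays.

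**Figure D4:**
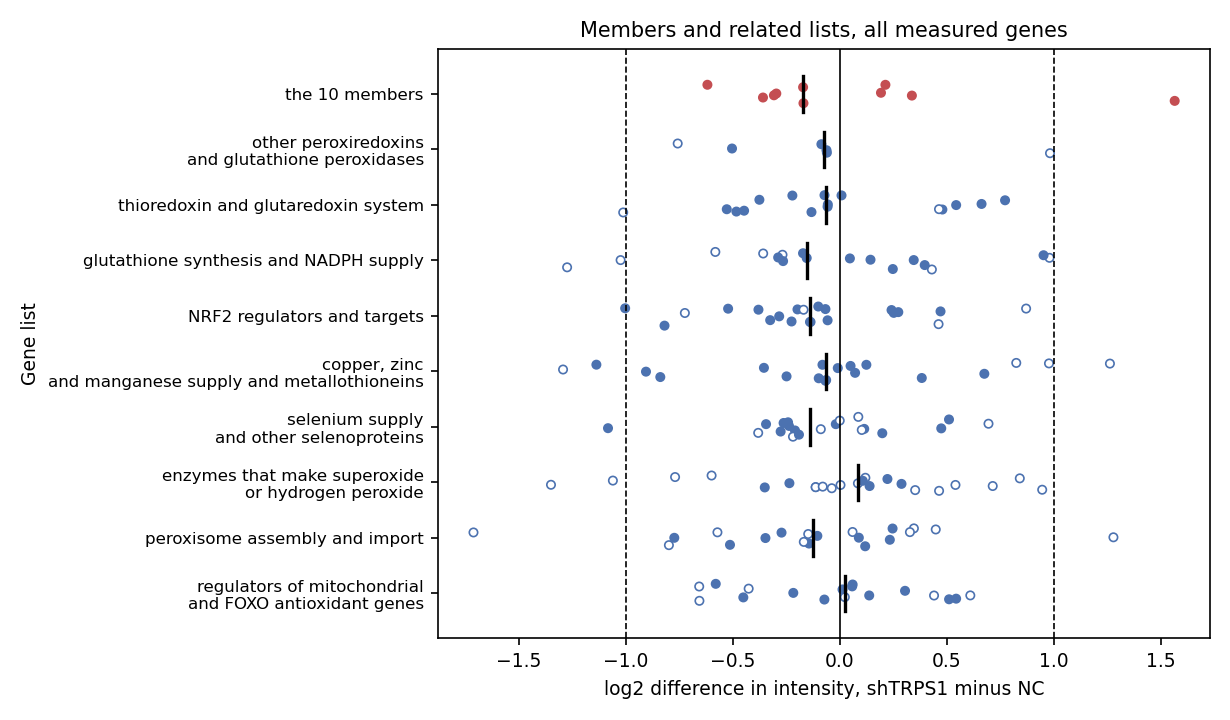
The log2 difference, shTRPS1 minus NC, of each member (red) and of each measured gene in the 9 related lists (blue; open points were not above background on both arrays), with the median of each group as a black tick and dashed lines at 2-fold; vertical scatter within a group has no meaning. SOD3 at 1.57 lies furthest to the right, and the medians of the related lists lie between -0.15 and 0.08.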

How the data were processed

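Gene expression was measured on 1 one-colour NimbleGen array each of T47D cells with control or shTRPS1 lentivirus. The values are the intensities the authors deposited, on a linear scale and 1 per transcript accession; the submitters' processing notes name RMA, without steps or version. No intensity was under 50.0, so dimmer transcripts are not analysed here. Of 28973 features, 12598 were named, all through RefSeq accessions (GRCh38.p14). The other 16375 entered no count. The 8 sample columns of a second table match no label and were not used.

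Log2 intensities were compared without a test, since there was 1 array per group, and that number limits the precision. Members, lists and markers were chosen with earlier results of these data known. Named were TRPS1, all members, 16 related genes whatever their values, up to 3 called genes per list and direction, and the 3 genes nearest to SOD3; related genes outside this rule are marked where they stand, and cell type markers are given as such. The software was Python 3.11.15, numpy 2.4.6, pandas 2.3.3, statsmodels 0.14.6 and matplotlib 3.10.9. The alternatives were rescaling by the median, by quantiles or by loess (span 0.4), the mean over features, platform names alone, other fold thresholds and other background rules.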

Additional observations from a re-analysis of the deposited data

How the results depend on the processing

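Rescaled by the median, by quantiles or by loess, the SOD3 difference was 1.52, 1.52 and 1.53, beside 1.57 as deposited. The mean over features, platform names and background rules could not move it, because SOD3 has 1 feature and they rescale nothing. SOD3 stayed the 1 member called higher in each alternative except the 3-fold threshold, where 0 members were called higher. The members were chosen for this difference on the same 2 arrays, so its persistence is no independent support. At 1.5-fold, 1 member, SOD2, was called lower. The other 9 members kept their sign in every rescaling. The mean over features could move only the 4 members with 2 features, which also kept their sign. For PRDX1 that mean was -0.07, from features of opposite sign. Over all genes, 958 were called higher and 588 lower at 1.5-fold, 46 and 41 at 3-fold, 545 and 440 with no filter on dim features, and 81 and 77 with both arrays above background. In the related lists together, 9 were called higher and 8 lower at 1.5-fold, 0 and 0 at 3-fold, and 2 and 10 with no filter; with both arrays above background 0 were called higher. These counts follow from the thresholds themselves. Of 326 further values for single genes and lists, 306 kept their call or stayed within 1.5 times and 20, all list counts, moved by more. No paired analysis was possible because each group had 1 array. Signal over background limits SOD2, NFE2L2, MT1F, SELENOO, SRXN1, HMOX1 and the dim glutathione genes.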
